A study of Mus musculus with 6 samples.

Results

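Toll-like receptors are described here across 6 bulk RNA-seq libraries of mouse liver tumours. The 10 genes Tlr1, Tlr2, Tlr3, Tlr4, Tlr5, Tlr6, Tlr7, Tlr8, Tlr9 and Tlr13 were taken by name from a table of 55291 genes, and all 10 were present and passed the filter on low values. Each tumour was a RIL-175/PD-1R tumour, grown from the mouse liver cancer line RIL-175 (PD-1R is not spelled out in the labels), and every mouse had received anti-PD-1, which blocks the T cell checkpoint receptor PD-1. The control group, Cre_PD1, was 3 tumours of LysM-Cre mice. The knockout group, MKO_PD1, was 3 tumours of Trem2-MKO mice, in which Trem2 is deleted in myeloid cells. LysM-Cre acts in macrophages, monocytes and neutrophils, so tumour cells and other host cells keep Trem2 in both groups. The labels give no age or sex and do not name the deleted part of Trem2, and no tumour without anti-PD-1 was analysed here.

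Toll-like receptors are membrane sensors of microbial and damage-associated molecules, abundant on macrophages, neutrophils, dendritic cells and B cells. Some act at the cell surface on lipoproteins, lipopolysaccharide or flagellin, and others in endosomes on nucleic acids. Ligand binding recruits adaptors such as MyD88 or TRIF through the shared TIR domain and leads to activation of NF-kB and interferon regulatory factors. In the liver, Kupffer cells, sinusoidal endothelial cells and hepatocytes meet bacterial products from the gut and carry several of these receptors. TREM2, a lipid-sensing receptor of macrophages, is known from other work to dampen Toll-like receptor responses, and the comparison asks how its loss from myeloid cells is reflected in tumour RNA.

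The libraries held 26747481 to 34265123 recovered reads. Trem2 itself, counted over the whole gene and so not a measure of the deleted part, averaged 14 ± 3.09 TPM in the controls and 10.8 ± 6.21 TPM in the knockouts, a difference short of the threshold (limma adjusted p = 0.432). Epithelial tumour markers, 6 genes, summed to 18203 to 24801 TPM in Cre_PD1 and 2497 to 9926 TPM in MKO_PD1. The sum of 10 hepatocyte markers was 8840 to 20202 TPM and 25085 to 108950 TPM, so RNA of both marker lists was present in every library. Which cells it came from was not tested. MKO_PD1 replicate 2 stood apart by its leukocyte RNA, with the leukocyte gene Ptprc at 39.6 TPM against 10.4 to 15.4 TPM in the other libraries. MKO_PD1 replicate 1 had the largest hepatocyte sum, the smallest epithelial tumour sum and the lowest Ptprc. In bulk RNA, fewer cells of a type and less RNA per cell cannot be told apart.

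On the mouse assembly GRCm38 (mm10) the genes lie on 7 chromosomes, and 2 pairs are neighbours. Tlr1 (chr5:64924679-64933563) and Tlr6 (chr5:64952031-64960097) lie on the minus strand 18467 bases apart. Tlr8 (chrX:167242696-167264329) and Tlr7 (chrX:167304929-167330558), also on the minus strand, are separated by 40599 bases. Tlr13 (chrX:106143204-106160493) is elsewhere on the X chromosome. Tlr2 is at chr3:83836272-83841767, Tlr3 at chr8:45395665-45411080, Tlr4 at chr4:66827584-66930284, Tlr5 at chr1:182954788-182976044 and Tlr9 at chr9:106222598-106226883. Values count reads over all annotated exons of a gene, 3014 bases for Tlr2 up to 5556 bases for Tlr4. Tlr1 and Tlr6 share sequence: 259 of the 3282 stretches of 100 bases in Tlr1 transcripts (7.89%) also occur in Tlr6, and no other pair of these genes shares one. How reads from those stretches were assigned is not given in the sources used here, so the split between Tlr1 and Tlr6 is uncertain to that extent. An antisense gene over Tlr3, Gm45542, had 0 reads in every library.

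All 10 receptors were transcribed at low to moderate levels, with 56 to 1360 reads per gene and library. Levels are in TPM (transcripts per 1000000), which are per exon length and can be compared between genes. In Cre_PD1 the highest mean was that of Tlr2 at 12 ± 4.63 TPM (SD, n = 3), followed by Tlr13 at 11.7 ± 1.93, Tlr4 at 10.8 ± 0.437, Tlr3 at 9.89 ± 1.67 and Tlr1 at 9.87 ± 1.23 TPM. These 5 did not keep one order across the control libraries: each exceeded the next in only 2 of 3. Lower means were those of Tlr8 at 6.0 ± 1.67 and Tlr6 at 5.85 ± 0.251 TPM, and then of Tlr9 at 3.69 ± 1.57 and Tlr7 at 3.68 ± 0.307 TPM; Tlr8 exceeded Tlr6, and Tlr9 exceeded Tlr7, in 1 of 3. Tlr5 was lowest in every control library, at 1.39 ± 0.524 TPM. For comparison, the median tested gene was at 13.6 TPM over the 6 libraries. In MKO_PD1 Tlr2 led in 3 of 3 libraries, Tlr9 and Tlr5 came last in 3 of 3, and neighbours among the genes between them kept their order in 2 of 3, apart from Tlr6 over Tlr9 in 3 of 3. The 2 mouse receptor genes outside the 10, which recognise profilin of protozoa, were at 11.8 ± 2.28 and 12.9 ± 1.55 TPM (Tlr12) and at 1.24 ± 0.247 and 1.60 ± 0.528 TPM (Tlr11), in Cre_PD1 and MKO_PD1.

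**Figure D1:**
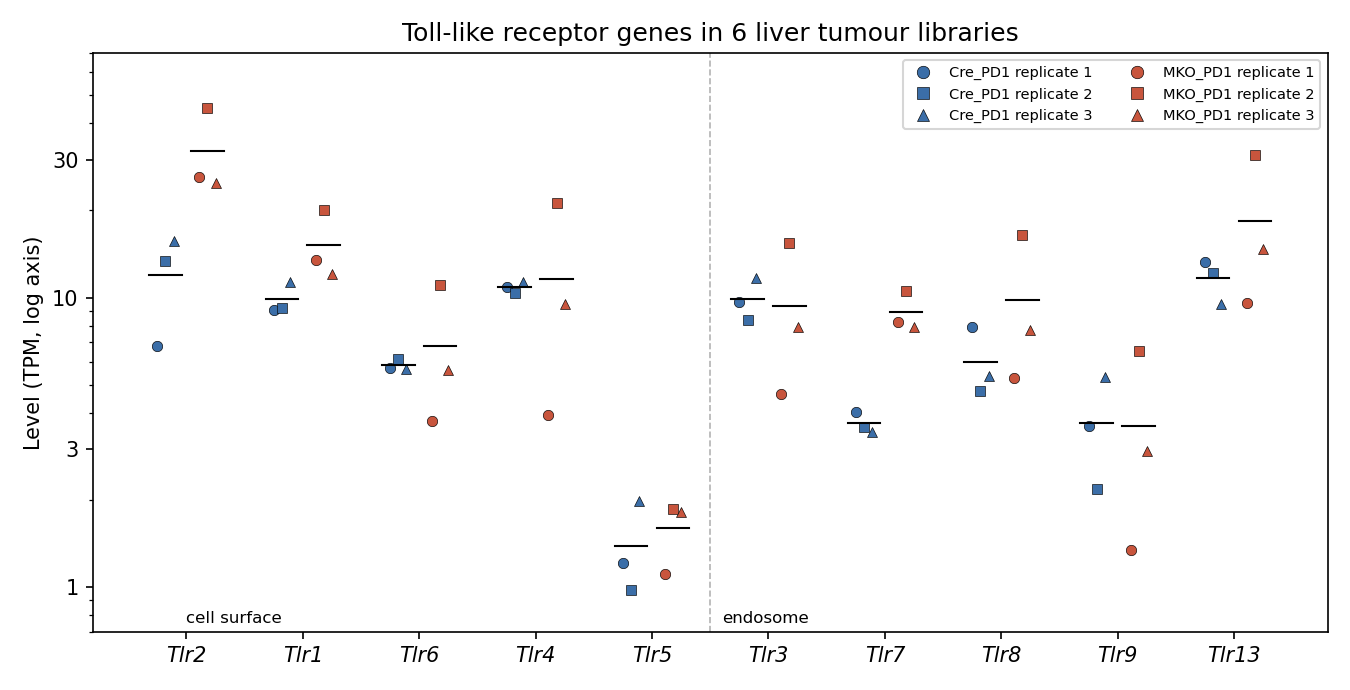
Level of each Toll-like receptor gene (TPM, log axis) in 3 Cre_PD1 (blue) and 3 MKO_PD1 (red) libraries, with the replicate shown by the marker shape and the group mean by a bar; surface receptors are left of the dashed line and endosomal ones right of it. The groups do not overlap for Tlr2, Tlr1 and Tlr7, and MKO_PD1 replicate 2 (red squares) is the highest library for 9 of the 10 genes. Of all tested genes 10.1% are separate and higher in MKO_PD1 and 28.9% separate and lower. The share of all genes that are highest in that library was not computed.

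Of the receptors of bacterial lipoproteins, Tlr2 and Tlr1 separated the groups and Tlr6 did not. Tlr2, which pairs with TLR1 on triacylated and with TLR6 on diacylated lipoproteins, was at 6.82, 13.4 and 15.7 TPM in Cre_PD1 replicates 1 to 3 and at 26.2, 45.2 and 24.9 TPM in MKO_PD1 replicates 1 to 3. Every MKO_PD1 library lay above every Cre_PD1 library, and Cre_PD1 replicate 1 was the lowest. The log2 difference, MKO_PD1 minus Cre_PD1, was 1.37 (SE 0.38), a fold of 2.58 on the log2(TPM + 1) scale, and missed the threshold (limma adjusted p = 0.168, and 0.0454 to 0.41 over the alternatives). Its partner gene Tlr1 was at 9.08, 9.23 and 11.3 TPM in the controls and at 13.5, 20.0 and 12.1 TPM in MKO_PD1. The groups were again separate, by a narrow margin between 11.3 and 12.1 TPM (log2 difference 0.55, SE 0.29, limma adjusted p = 0.222). The other partner, Tlr6, was at 5.73, 6.14 and 5.69 TPM in Cre_PD1 and at 3.76, 11.1 and 5.63 TPM in MKO_PD1. The MKO_PD1 libraries thus lay on both sides of a tight control group (log2 difference 0.082, SE 0.38, limma adjusted p = 0.881). Without MKO_PD1 replicate 1 the Tlr6 difference was 0.38. Without MKO_PD1 replicate 2 it was -0.29 (limma adjusted p = 0.383), that of Tlr1 was 0.35, and that of Tlr2 was 1.10 and passed (limma adjusted p = 0.0454). In that fit 45.9% of all tested genes passed, 7.88% higher.

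Because Tlr1 and Tlr2 separated the groups and the neighbour and paralog Tlr6 did not, the sequences before their RefSeq start sites are shown (GRCm38.p6, minus strand, only bases outside annotated exons). Windows of 300 bases, 250 before to 50 after a start, were searched on both strands for the PU.1 core GAGGAA, the NF-kB form (GGG, any 2 bases, TT, any base, CC), the AP-1 form TGANTCA and the interferon response form (GAAA, any 2 bases, GAAA). Capitals mark a match.
Tlr1, chr5:64933564-64933808: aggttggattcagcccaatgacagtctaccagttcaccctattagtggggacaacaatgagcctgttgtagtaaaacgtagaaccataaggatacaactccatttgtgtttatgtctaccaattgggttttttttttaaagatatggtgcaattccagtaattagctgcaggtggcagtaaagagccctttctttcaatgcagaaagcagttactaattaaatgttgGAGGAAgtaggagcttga
Tlr2, chr3:83841768-83841858: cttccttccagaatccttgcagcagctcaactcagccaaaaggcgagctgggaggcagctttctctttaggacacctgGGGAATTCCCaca
Tlr6, chr5:64960098-64960298: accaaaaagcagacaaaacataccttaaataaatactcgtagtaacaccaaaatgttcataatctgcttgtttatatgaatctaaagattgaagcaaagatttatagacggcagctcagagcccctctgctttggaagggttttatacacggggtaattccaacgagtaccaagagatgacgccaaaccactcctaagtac

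The PU.1 core in Tlr1 began at position -23 from the start, and the NF-kB form in Tlr2, matched on both strands, at -172. The shown Tlr6 stretch held none of the 4 motifs, while the window of a second Tlr6 start held 2 interferon response matches, which overlap each other. RefSeq start windows were found for 8 of the 10 genes, all but Tlr4 and Tlr7, as 10 windows. The PU.1 core occurred in 4 of these 10 windows and in 28.3% of all 32851 windows of the same length. For the NF-kB form the figures were 2 windows (Tlr2 and Tlr3) and 4.79%, for AP-1 1 window (Tlr9) and 7.81%, and for the interferon response form 1 window (Tlr6) and 3.44%. The NF-kB form had a base left free after the Tlr2 sequence was seen. Its match in Tlr2 was thus fixed in advance, and its count is a description only. A match describes letters only and does not show binding.

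The other surface receptors did not separate the groups. Tlr4, the receptor of bacterial lipopolysaccharide, was at 10.9, 10.4 and 11.3 TPM in Cre_PD1 and at 3.93, 21.3 and 9.50 TPM in MKO_PD1. The controls were tightly grouped, while MKO_PD1 held both the lowest library (replicate 1) and the highest (replicate 2). The log2 difference was -0.17 (SE 0.51, limma adjusted p = 0.811), and leaving out MKO_PD1 replicate 1 gave 0.37, leaving out MKO_PD1 replicate 2 gave -0.72. Tlr5, the flagellin receptor, was at 1.21, 0.974 and 1.98 TPM in Cre_PD1 and at 1.11, 1.86 and 1.82 TPM in MKO_PD1, from 56 to 92 reads per library. The ranges overlapped almost fully, and the log2 difference was 0.13 (SE 0.30, limma adjusted p = 0.758).

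Among the endosomal receptors of nucleic acids, Tlr7 separated the groups and its X-linked neighbour Tlr8 did not. Tlr7, a sensor of single-stranded RNA, was at 4.02, 3.57 and 3.44 TPM in Cre_PD1 (167, 175 and 123 reads) and at 8.24, 10.5 and 7.92 TPM in MKO_PD1 (441, 429 and 342 reads). The lowest MKO_PD1 library was well above the highest control, and the spread within each group was small. The log2 difference was 1.07 (SE 0.28), a fold of 2.10, and missed the threshold (limma adjusted p = 0.168, and 0.0293 to 0.41 over the alternatives). Without MKO_PD1 replicate 2 it was 0.96 and passed (limma adjusted p = 0.0293), in a fit where 45.9% of all tested genes passed, 7.88% higher. The values of Tlr8 were 7.90, 4.76 and 5.35 TPM in Cre_PD1 and 5.27, 16.4 and 7.75 TPM in MKO_PD1. The groups overlapped and only MKO_PD1 replicate 2 lay outside the control range by a wide margin (log2 difference 0.52, SE 0.42, limma adjusted p = 0.388). Without that library the Tlr8 difference was 0.11, and without MKO_PD1 replicate 1 it was 0.84. The TPM ratio of Tlr7 to Tlr8 was 0.509, 0.750 and 0.643 in Cre_PD1 and 1.56, 0.640 and 1.02 in MKO_PD1, with MKO_PD1 replicate 2 inside the control range.

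Tlr13, which recognises bacterial ribosomal RNA in mice, was at 13.3, 12.2 and 9.52 TPM in Cre_PD1 and at 9.60, 31.1 and 14.7 TPM in MKO_PD1. Its groups overlapped through MKO_PD1 replicate 1, and the log2 difference was 0.48 (SE 0.42, limma adjusted p = 0.419); leaving out MKO_PD1 replicate 1 gave 0.84 and leaving out MKO_PD1 replicate 2 gave 0.042 (limma adjusted p = 0.234 and 0.907). For Tlr3, the receptor of double-stranded RNA that signals through TRIF, the controls held 9.63, 8.36 and 11.7 TPM and the MKO_PD1 tumours 4.66, 15.4 and 7.94 TPM. MKO_PD1 replicates 1 and 3 lay below every control and replicate 2 above them (log2 difference -0.20, SE 0.41, limma adjusted p = 0.73), with differences of 0.16 without replicate 1 and -0.60 without replicate 2. Tlr9, the receptor of unmethylated CpG DNA, best known from B cells and plasmacytoid dendritic cells, was at 3.59, 2.18 and 5.31 TPM in Cre_PD1 and at 1.34, 6.53 and 2.96 TPM in MKO_PD1. Here too MKO_PD1 supplied the lowest and the highest library (log2 difference -0.13, SE 0.48, limma adjusted p = 0.844), and the difference was 0.27 without MKO_PD1 replicate 1, -0.57 without MKO_PD1 replicate 2 and 0.11 without Cre_PD1 replicate 3. Markers of these cells did not separate the groups: the 7 B cell markers summed to 8.13 to 33.4 TPM in Cre_PD1 and 20.0 to 23.7 TPM in MKO_PD1, and the 6 plasmacytoid dendritic cell markers to 663 to 1029 and 658 to 1095 TPM. Only 5 and 4 of these markers passed the filter. The plasmacytoid list averaged only 2.28 to 3.00 on the log2(TPM + 1) scale. High values of few genes thus make up its sum, which is a weak measure of these cells.

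Over the family, 0 of 10 receptors passed the limma test at an adjusted p of 0.05, where 0.0121% of all 16506 tested genes did. At an unadjusted p under 0.05 there were 2, Tlr2 and Tlr7, against 27.9% of all genes, or 8.47% for genes higher in MKO_PD1. Limma's voom on the recovered reads also called 0. Groups were separate, with the lowest value of one above the highest of the other, for 3 receptors, Tlr1, Tlr2 and Tlr7, all higher in MKO_PD1. Separate and higher values were found for 10.1% of all tested genes and separate and lower ones for 28.9%; no receptor was among the latter. The median log2 difference of the 10 receptors was 0.30 and that of all tested genes -0.42, and all 10 receptors lay above the all-gene median. The scaling matters for these counts. With median-of-ratios scaling the all-gene median was -0.018, the shares of all genes were 18.6% higher and 21.2% lower, and 6 receptors were separate, Tlr6, Tlr8 and Tlr13 in addition; the differences of Tlr3, Tlr4 and Tlr9 turned positive, at 0.22, 0.24 and 0.19. Leaving out MKO_PD1 replicate 2 made 45.9% of all genes pass, 7.88% higher, and with them 2 receptors, Tlr2 and Tlr7, both higher.

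**Figure D2:**
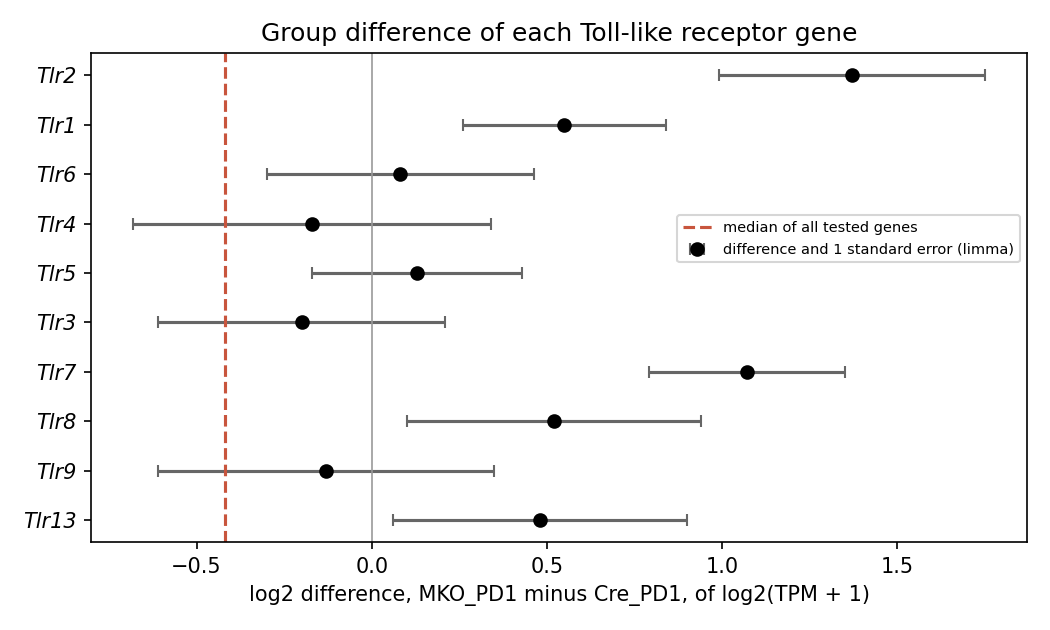
Log2 difference of each receptor gene between the 3 MKO_PD1 and 3 Cre_PD1 libraries on the log2(TPM + 1) scale; points are limma estimates, bars 1 standard error, and the dashed line the median of all tested genes. Tlr2 at 1.37 and Tlr7 at 1.07 lie farthest to the right, and all 10 points lie right of the dashed line at -0.42.

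The summed level of the 10 genes was 72.1, 71.2 and 81.3 TPM in Cre_PD1 and 77.6, 179 and 95.3 TPM in MKO_PD1. The groups overlapped at the low end, and the log2 difference of 0.56 did not pass (exact permutation p = 0.2, two-sided, where 0.1 is the smallest that 3 against 3 libraries allow). MKO_PD1 replicate 2 was highest for 9 of the 10 receptors, all but Tlr5, and MKO_PD1 replicate 1 was the lowest library for 4, Tlr3, Tlr4, Tlr6 and Tlr9. The matching shares of all tested genes were not computed. Without MKO_PD1 replicate 2 the difference in the sum was 0.20, without MKO_PD1 replicate 1 it was 0.81, and with median-of-ratios scaling 1.03. Marker sums of several cell types are given beside these levels. Their counts of separate and higher genes stand beside 10.1% of all tested genes. Those of macrophages, neutrophils, classical dendritic cells, T cells and fibroblasts were highest in MKO_PD1 replicate 2, as the receptor sum was, while within MKO_PD1 those of Kupffer cells, endothelium and hepatocytes were lowest there. The 14 macrophage genes summed to 2788 to 3726 TPM in Cre_PD1 and to 3461, 7179 and 3744 TPM in MKO_PD1 replicates 1 to 3, with 6 separate and higher and none at 0. Of 10 neutrophil genes 4 were separate and higher, and the list summed to 113 to 237 TPM in Cre_PD1 and 286, 1186 and 450 TPM in MKO_PD1. The 8 classical dendritic cell genes, 2 of them separate and higher and Cd209a at 0 in 1 or more libraries, summed to 28.4 to 31.5 TPM and to 32.0, 51.0 and 36.8 TPM. The 10 Kupffer cell genes, markers of the resident liver macrophages, summed to 279 to 641 TPM and to 2533, 553 and 1647 TPM, with 2 separate and higher. For 6 endothelial genes, of which 4 were separate and higher, the sums were 83.4 to 104 TPM and 135 to 200 TPM. Of the 10 hepatocyte genes, whose sums are given above, 8 were separate and higher. Of the 6 epithelial tumour genes 4 were separate and lower, as were 28.9% of all tested genes. T cell genes, 6 in number and none separate, summed to 65.0 to 119 TPM and to 36.5, 269 and 63.3 TPM. The 6 fibroblast and stellate cell genes, 2 of them separate and higher, summed to 333 to 537 TPM and to 138, 1074 and 334 TPM. The part of these cell types in the receptor levels was not tested.

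Set against macrophage genes within each library, Tlr2 was separate and higher in MKO_PD1 while Tlr3, Tlr4 and Tlr6 were separate and lower. Each receptor's log2(TPM + 1) was taken minus the mean of the 14 macrophage genes. For Tlr2 this was -3.32, -2.67 and -2.51 in Cre_PD1 and -1.70, -2.09 and -2.07 in MKO_PD1, a difference of 0.88 with separate groups. It was higher in 3 of 3 MKO_PD1 libraries, as were 0.606% of all tested genes on this measure. The groups were separate in the other direction for Tlr3 (difference -0.69), Tlr4 (-0.66) and Tlr6 (-0.40), as they were for 66.9% of all tested genes. For Tlr7 the values were -3.96, -4.32 and -4.43 in Cre_PD1 and -3.25, -4.09 and -3.60 in MKO_PD1, a difference of 0.59 with overlap between Cre_PD1 replicate 1 and MKO_PD1 replicate 2. Tlr1 (0.068), Tlr8 (0.035) and Tlr13 (-0.0056) differed by far less than their spread, and Tlr5 (-0.35) and Tlr9 (-0.62) overlapped. The exact permutation p was 0.1, two-sided, for each of Tlr2, Tlr3, Tlr4 and Tlr6, the smallest this design gives, and 0.25 after Benjamini-Hochberg adjustment over the 10 genes. Against Ptprc alone Tlr2 (0.99), Tlr3 (-0.59) and Tlr4 (-0.56) stayed separate and Tlr6 (-0.30) overlapped. Against Csf1r alone Tlr2 (0.68) stayed separate and higher and Tlr7 (0.39) became so. Tlr3 (-0.89), Tlr4 (-0.86) and Tlr6 (-0.60) stayed separate and lower, and Tlr5 (-0.56) became so. The shares of all tested genes against Ptprc alone or Csf1r alone were not computed. Separation on these measures therefore cannot be set beside that of other genes.

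**Figure D3:**
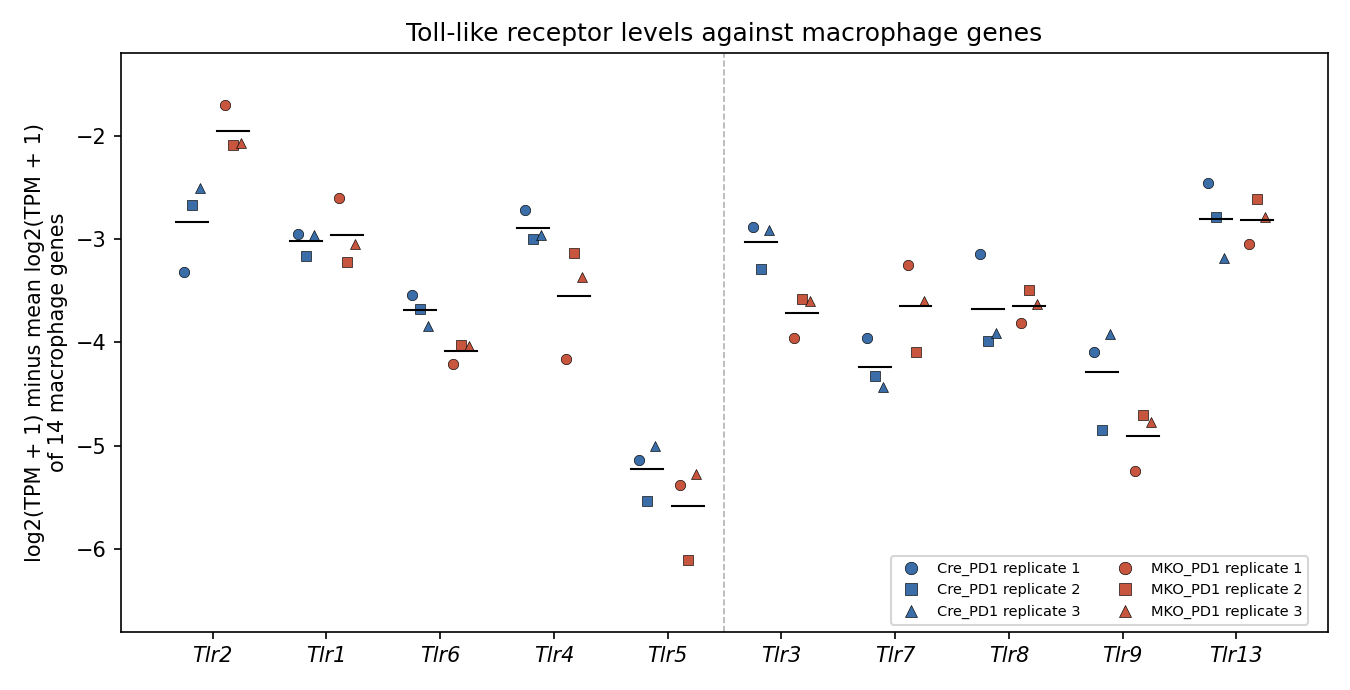
Log2(TPM + 1) of each receptor minus the mean of 14 macrophage genes in the same library, for 3 Cre_PD1 (blue) and 3 MKO_PD1 (red) libraries; marker shapes are replicates and bars are group means. Tlr2 lies higher in all 3 MKO_PD1 libraries (difference 0.88), while Tlr3, Tlr4 and Tlr6 lie lower in all 3 and Tlr8 and Tlr13 have nearly equal means. Of all tested genes 0.606% are separate and higher on this measure and 66.9% separate and lower.

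The make-up of the receptor transcripts is given as each gene's share of their summed TPM. Tlr2 took 9.46, 18.8 and 19.4% in Cre_PD1 and 33.7, 25.2 and 26.1% in MKO_PD1, where it was the largest share in every library. Tlr4 took 15.1, 14.6 and 13.9% in Cre_PD1 and 5.06, 11.9 and 9.97% in MKO_PD1. The share of Tlr3 was 13.2 ± 1.33% in Cre_PD1 and 7.64 ± 1.42% in MKO_PD1, and that of Tlr6 7.86 ± 0.812% and 5.64 ± 0.698%, both without overlap (SD, n = 3 each). The share of Tlr7 was 5.58, 5.01 and 4.23% in Cre_PD1 and 10.6, 5.86 and 8.32% in MKO_PD1, separate by a narrow margin. Tlr13 (15.7 ± 3.54% and 15.1 ± 2.50%) and Tlr8 (8.07 ± 2.50% and 8.03 ± 1.19%) overlapped. Shares of one whole depend on each other, so these are descriptions without a test. In pairs chosen after the values were seen, the Tlr2 to Tlr4 ratio was 0.627, 1.29 and 1.40 in Cre_PD1 and 6.66, 2.12 and 2.62 in MKO_PD1. The Tlr2 to Tlr6 ratio was 1.19, 2.19 and 2.77 against 6.95, 4.08 and 4.42. That of Tlr2 to Tlr1 was 0.751, 1.45 and 1.40 against 1.93, 2.26 and 2.06. All 3 of these ratios with Tlr2 were separate, whereas Tlr1 to Tlr6 (1.59, 1.5 and 1.98 against 3.60, 1.81 and 2.15) overlapped. The 3 have the numerator Tlr2 in common, whose own level was separate, so they are not independent results. How often such ratios or shares separate the groups among all tested genes was not computed.

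**Figure D4:**
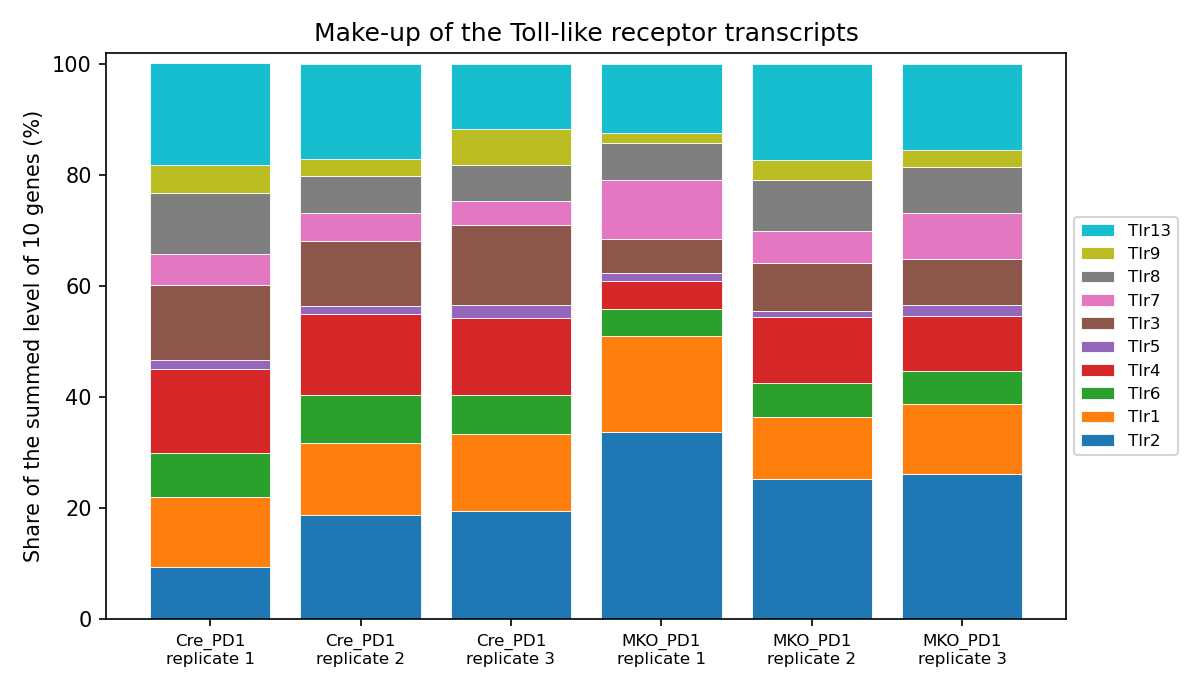
Share of each receptor gene (percent, stacked to 100) in the summed TPM of the 10 genes, one bar per library. The Tlr2 block at the bottom covers 9.46 to 19.4% in the controls and 25.2 to 33.7% in the knockouts, and the Tlr4 and Tlr3 blocks are smaller in every MKO_PD1 bar than in any Cre_PD1 bar.

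Genes that work with the receptors were followed in a list of 83, of which 78 were tested. None passed the limma test over all genes, and voom on the recovered reads called 0; at an unadjusted p under 0.05, 5 were higher and 7 lower in MKO_PD1, where 8.47% of all tested genes were higher and 19.5% lower. Groups were separate for 10 higher and 10 lower genes, beside 10.1% and 28.9% of all genes, and the list median was -0.091. Among 7 co-receptor genes, Cd36, which passes diacylated lipoproteins and oxidised lipids to TLR2 and TLR6, was at 14.3, 21.1 and 15.6 TPM in Cre_PD1 and at 65.4, 43.5 and 64.6 TPM in MKO_PD1 (1.70 on the log2 scale with an SE of 0.28, limma adjusted p = 0.168). Cd36 was lowest of the 3 in MKO_PD1 replicate 2, the library where Tlr2 was highest. Cd180, a relative of TLR4 on B cells and macrophages, was at 5.18 ± 1.23 and 9.74 ± 4.93 TPM with separate groups. Hmgb1, a nuclear protein sensed when released, was at 170 ± 15.1 and 111 ± 34.1 TPM, separate and lower. Lbp, which carries lipopolysaccharide and is made by hepatocytes, was at 45.4 ± 7.98 and 80.8 ± 44.8 TPM with overlap. Cd14, which hands lipopolysaccharide to TLR4, was at 171, 192 and 125 TPM in Cre_PD1 and 43.2, 229 and 108 TPM in MKO_PD1, again lowest in replicate 1 and highest in replicate 2 as for Tlr4.

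Folding, transport and sorting of the receptors were followed by 7 tested genes. Of these 1 was separate and lower and none separate and higher, beside 28.9% and 10.1% of all tested genes. Unc93b1, the chaperone of TLR3, TLR7, TLR9 and TLR13, was at 96.1, 95.9 and 121 TPM in Cre_PD1 and 115, 222 and 121 TPM in MKO_PD1, with overlap. Cnpy4 was at 38.8 ± 5.26 and 18.8 ± 11.1 TPM, separate and lower, while Ap3b1, a sorting adaptor subunit (54.9 ± 9.29 and 39.6 ± 10.6 TPM), and the folding chaperone gene Hsp90b1 (439 ± 18.2 and 367 ± 60.2 TPM) overlapped. Of 5 endosomal protease genes, which include those that cleave nucleic acid receptors into their active form, Ctsl (217 ± 40.0 and 343 ± 36.6 TPM) and Ctsb (467 ± 50.7 and 644 ± 127 TPM) were separate and higher, as were 10.1% of all tested genes. Ctss (826 ± 137 and 1274 ± 890 TPM) and Ctsk (11.3 ± 4.85 and 12.6 ± 12.5 TPM) overlapped.

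Signalling genes included separate members in both directions, as did all tested genes, 10.1% of them higher and 28.9% lower. Of 5 tested adaptors, Pik3ap1, which links receptors to PI3 kinase, was separate and higher (30.1 ± 5.76 and 44.9 ± 4.97 TPM) and Ticam1, which encodes TRIF, separate and lower (20.4 ± 4.19 and 15.4 ± 0.922 TPM). Ticam2 (1.81 ± 0.180 and 2.94 ± 2.02 TPM) and Tirap (12.4 ± 3.33 and 14.2 ± 2.33 TPM), the bridging adaptors of TLR4 and TLR2, overlapped. Of 16 kinase and ubiquitin ligase genes 1 was separate and higher and 2 separate and lower, with a median of -0.35. Tab1 (31.7 ± 3.88 and 15.0 ± 6.48 TPM) and Tab3 (16.0 ± 3.34 and 7.57 ± 3.59 TPM), partners of the kinase TAK1, were lower, Ikbke, a kinase upstream of interferon regulatory factors, was higher (17.5 ± 2.93 and 26.7 ± 6.17 TPM), and Irak4 overlapped (24.4 ± 3.71 and 15.0 ± 6.05 TPM). Of 9 transcription factors, Rela, an NF-kB subunit, was separate and lower (120 ± 8.08 and 80.5 ± 21.6 TPM), and its relatives overlapped, Nfkb2 (90.3 ± 14.2 and 49.6 ± 26.0 TPM), Relb (41.3 ± 3.24 and 25.0 ± 15.8 TPM) and Nfkb1 (42.9 ± 4.22 and 27.5 ± 14.4 TPM). Irf5, the interferon regulatory factor downstream of TLR7 in myeloid cells, was separate and higher, at 38.8 ± 3.82 and 59.9 ± 21.9 TPM.

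The 12 inhibitor genes had a median of -0.38, close to that of all genes. Among them 4 were separate and lower and 1 separate and higher, beside 28.9% and 10.1% of all tested genes. Sigirr, an inhibitory member of the interleukin-1 receptor family, was at 85.0, 53.3 and 56.2 TPM in Cre_PD1 and 21.1, 37.2 and 27.3 TPM in MKO_PD1 (-1.16 on the log2 scale with an SE of 0.31, limma adjusted p = 0.168). Dok1 (98.8 ± 13.8 and 43.9 ± 25.1 TPM) and Tnip1, a partner of the deubiquitinase A20 (63.8 ± 5.70 and 35.0 ± 19.1 TPM), were also separate and lower, as was Tollip (log2 difference -0.29). The myeloid inhibitor Irak3, also named IRAK-M, was the higher one, at 2.81, 2.58 and 3.79 TPM in Cre_PD1 and 4.5, 7.95 and 4.66 TPM in MKO_PD1. Of 17 tested genes that the receptors induce, 2 were separate and higher and none was separate and lower, beside the same 10.1% and 28.9% of all genes. Their median was 0.30. The neutrophil-attracting chemokine gene Cxcl1 was at 10.8, 23.7 and 14.1 TPM in Cre_PD1 and 55.8, 46.5 and 57.8 TPM in MKO_PD1 (1.72 on the log2 scale with an SE of 0.32, limma adjusted p = 0.168). The cytokine gene Il1a was at 4.83, 9.62 and 8.84 TPM and at 14.2, 18.2 and 15.0 TPM. Cxcl2 (8.37 ± 5.13 and 21.3 ± 11.1 TPM) and the costimulatory ligand gene Tnfsf9 (23.4 ± 3.30 and 14.1 ± 11.3 TPM) overlapped. Il6, Il12a, Ifnb1, Lamp5 and Sarm1 did not pass the filter; Ifnb1 had 0 or 1 read per library and Lamp5 0. Without MKO_PD1 replicate 2, 25 of the 78 genes passed, 4 higher and 21 lower, in a fit where 45.9% of all genes passed; the 4 were Cd36, Lbp, Ctsl and Cxcl1.

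**Figure D5:**
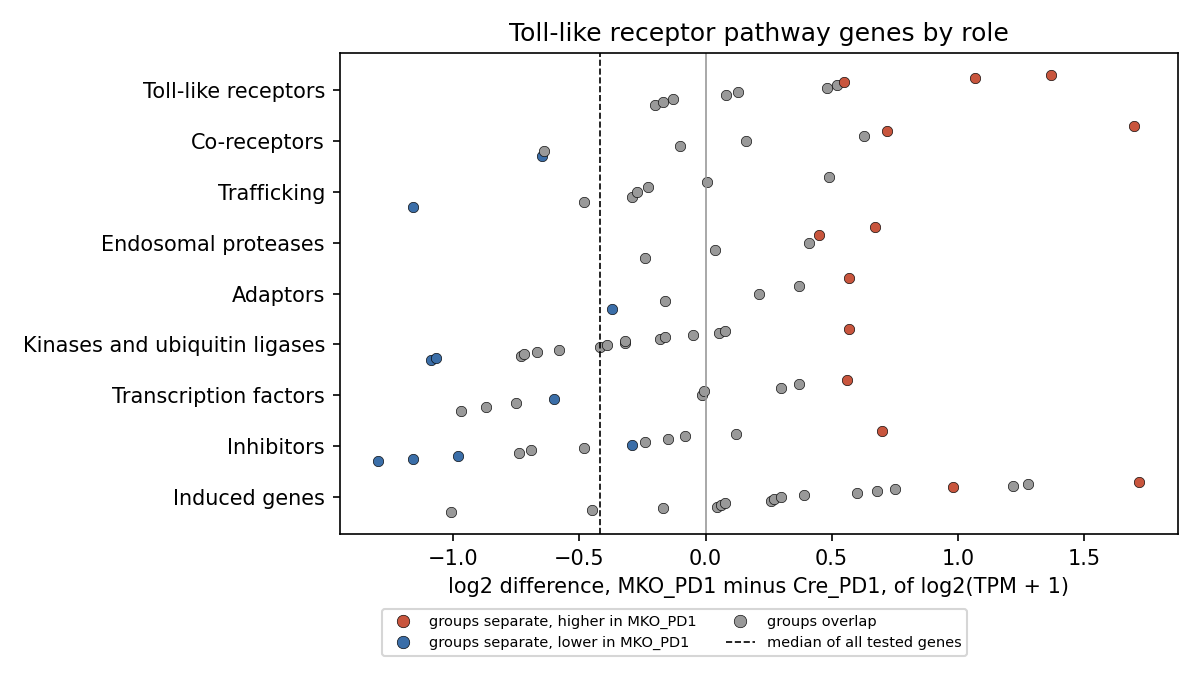
Log2 difference, MKO_PD1 minus Cre_PD1, of the 10 receptors and the 78 tested pathway genes by role, each point 1 gene; red and blue mark genes whose 3 and 3 libraries do not overlap, grey those that do, and the dashed line is the median of all tested genes at -0.42. Cd36 and Cxcl1 lie farthest right, and 4 of 12 inhibitors are separate and lower, where 28.9% of all tested genes are.

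The receptors' patterns over the 6 libraries were also compared with each other and with 13126 other genes, by the root mean square difference of log2(TPM + 1) after each gene was centred on its own mean. Among the receptors the closest pairs were Tlr8 and Tlr13 (0.169), Tlr3 and Tlr9 (0.171) and Tlr3 and Tlr4 (0.214). The genomic neighbours were less alike than these, at 0.357 for Tlr1 and Tlr6 and 0.457 for Tlr7 and Tlr8. Both lay well inside the range of all receptor pairs, which ran from 0.169 to 0.947 (Tlr2 and Tlr4). The genes most like Tlr2 were Clec12a (0.201), an inhibitory lectin receptor of myeloid cells, Cldnd2 and Slc7a8, an amino acid transporter. Clec12a was at 6.96, 12.1 and 11.0 TPM in Cre_PD1 and 19.1, 33.8 and 17.0 TPM in MKO_PD1. Those most like Tlr7 were the myeloid receptor genes Cd300lb (0.114) and Cd300ld (0.133), and Tbc1d2b. Cd300lb was at 7.15, 7.54 and 6.06 TPM and at 17.5, 19.5 and 14.3 TPM. Tlr1 was closest to Ikbke (0.0567) and Tlr5 to Tirap (0.0526), both on the pathway list, and Tlr13 and Tlr8 shared Igsf6 among their 3 closest genes (0.0739 and 0.114). Tlr4 was closest to Adamts12 (0.0829), Creb3l1 and Cyp1b1, Tlr3 to Fnbp1 (0.0566), Tlr6 to Mark1 (0.0558) and Tlr9 to Tssk4, Rnf213 and Macf1 (0.122 each). With 6 libraries many genes share a pattern, and these likenesses are descriptions without a test.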

How the data were processed

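The submitters' processing notes list the aligner STAR 2.7.10a, the read counter featureCounts 2.0.3 of Subread and the build mm10, without their settings. The deposited table is named as TPM and the design assumed TPM, but its columns sum to 70363 to 105281, so the deposited values are a signal per exon length without a common total. Multiplied by GENCODE M21 exon length and divided by 8.028, 98.5% of genes with signal gave whole reads (within 0.001), and all 10 receptors did. Columns were rescaled to 1000000 (TPM) and analysed as log2(TPM + 1). Genes at 1 TPM or more in at least 3 of 6 libraries were tested, 16506 in all, with limma 3.58.1 in R 4.3.3 (trend, no block, Benjamini-Hochberg over all tested genes, threshold 0.05). The fit was also run on simulated counts with the same dispersion for every gene and no library that stood apart. These data differ from that setting, and no result here rests on that run. The design text gives 3 mice per group and no pairing, and p-values measure the spread between these samples.

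The receptors, pathway genes and marker lists were chosen with earlier results of these data known. All 10 receptors are named, with up to 4 pathway genes per role by smallest p and the 3 closest genes in pattern. Other genes and the pair ratios were chosen after their values were seen. Alternatives changed the pseudocount, filter, scaling, trend, robust option, replicate block, voom and each library in turn. Exact permutation tests used the 6 libraries. One base of the NF-kB form was left free after the Tlr2 sequence was seen.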

Additional observations from a re-analysis of the deposited data

How the results depend on the processing

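The count of all genes past the threshold was 2, and 0 with no filter, a filter of 5 TPM, the replicate block or voom on recovered reads, 1 with median-of-ratios scaling or quantile normalization, and 0 to 7314 with 1 library left out, the highest without MKO_PD1 replicate 2. Under the same omissions the receptors past the threshold numbered 0 to 2 and the pathway genes 0 to 25. The higher and separate receptors numbered 6 with median-of-ratios scaling and 6 with quantile normalization, against 3 (alternatives chosen after seeing the data), and 3 or 4 with a library left out. Of all tested genes 18.6% were higher and separate with median-of-ratios scaling, against 10.1% in the main setting. That share was not computed for quantile normalization or with a library left out. The median receptor difference ran from 0.048 to 0.70 over all alternatives.

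Of 168 alternative values of single receptor differences, 13 changed sign, none of a receptor past the threshold, and the cause was not tested. With quantile normalization Tlr3 was at 0.15, Tlr4 at 0.19 and Tlr9 at 0.053, with median-of-ratios scaling at 0.22, 0.24 and 0.19, and with values as deposited Tlr4 was at 0.01 and Tlr9 at 0.0058. With a library left out Tlr3 ranged from -0.60 to 0.16, Tlr4 from -0.72 to 0.37, Tlr6 from -0.29 to 0.38 and Tlr9 from -0.57 to 0.27. Against macrophage genes, 11 of 90 changed sign: Tlr1 was at -0.13 and Tlr8 at -0.17 against Csf1r alone, and Tlr13 at 0.025 with pseudocount 0.1 and 0.10 against Ptprc alone. With a library left out these ranged from -0.11 to 0.20 for Tlr1, -0.12 to 0.31 for Tlr8 and -0.19 to 0.17 for Tlr13.

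Same-numbered libraries did not deviate together (correlations -0.42, -0.265 and 0.0488), so the replicate block pairs samples by number alone; with it 0 genes passed. The 5 TPM filter left 8 receptors, without Tlr5 and Tlr9. These 2, with as few as 56 and 61 reads in a library, are those that depth limits most.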
